A study of Mus musculus with 8 samples.

Results

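Cell cycle genes were examined in liver RNA of mice given 1 of 2 adeno-associated viral vectors. The 36 genes are rows of the deposited count table chosen by symbol, out of 31910 genes in all. They comprise 4 regulators of the G1 phase and of entry into S phase, 10 genes of DNA replication and nucleotide synthesis and 22 genes of mitosis and its preparation. Of the 36 genes, 34 had counts, 29 had enough counts to be tested and 8 are also in the deposited FPKM table.

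The series has 8 liver libraries, 4 from mice given AAV2/9-Ctrl (Ctrl) and 4 from mice given AAV2/9-SA (SA). By its title, the series is about a protein of bacterial origin with acetyl-CoA carboxylase, an enzyme of fatty acid synthesis, as its binding partner. Feeding plans in the design text are 24 weeks of high fat, 16 weeks of high fat and cholesterol plus sugared water, or chow, and each mouse received 4.8e10 vector genomes by tail vein after 7 weeks of feeding. The labels state neither the diet, age, sex or strain of each mouse nor the promoter of the vector, and both groups received a vector, so no library is from an uninjected mouse. Transcripts of the vector were not analysed here.

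Total counts were 14114145 to 15922829 in 7 libraries and 28184001 in SA 4. Mitochondrial transcripts took 9.23% of counts in Ctrl 4 and 3.55% to 4.87% in the others. All 10 hepatocyte markers were detected in every library, with a summed level of 87984 to 123441 CPM in Ctrl and 86651 to 109702 CPM in SA. CPM here is counts scaled to a library total of 1e+06, with TMM normalisation factors.

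Most hepatocytes of an adult liver rest outside the cell cycle. On a growth signal, D-type cyclins bind CDK4 and CDK6 and inactivate the retinoblastoma proteins, which frees E2F factors to switch on cyclin E, the replication machinery and the enzymes that make DNA precursors. Later, cyclin A, cyclin B and CDK1 drive mitosis, and their genes are held silent in resting cells by a repressor complex called DREAM.

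No member passed the test over all genes. With edgeR's quasi-likelihood test, 0 of 29 members had an adjusted p under 0.05, where 0.0162% of the 12358 tested genes did and 0.00809% did so as lower in SA. At an unadjusted p under 0.05 there were 2 of 29 members, against 6.21% of all tested genes. They were Ccnd1, lower in SA as were 3.29% of all tested genes, and Mcm4, higher in SA as were 2.91%. Over the 29 members the median log2 fold change was 0.04, 16 positive and 13 negative, beside -0.01 over all tested genes. limma-voom called none of the members. DESeq2 called 1, Ccnd1, where it called 0.346% of all genes with an adjusted p.

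Ccnd1, which encodes cyclin D1, was the only member whose libraries did not overlap between the groups. Its level was 29.3, 25.1, 21.7 and 39.9 CPM in Ctrl 1 to 4 and 18.0, 12.9, 17.2 and 8.82 CPM in SA 1 to 4. All SA libraries were below all Ctrl libraries, which held for 1 of 29 members and for 1.46% of all tested genes. Ctrl had a mean of 29.0 ± 7.90 CPM and SA a mean of 14.2 ± 4.25 CPM (SD, n = 4 in each group). The log2 fold change was -1.03 ± 0.24 SE by edgeR (adjusted p = 0.342).

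In SA 4, the library with the most reads, Ccnd1 had 244 counts against 206 to 269 in the other SA libraries. DESeq2 gave Ccnd1 a log2 fold change of -1.04 (adjusted p = 0.0202). Leaving out Ctrl 1, Ctrl 4, SA 2 or SA 4, 1 at a time, ended that call (DESeq2, adjusted p = 0.101, 0.0588, 0.162 and 0.118). The fold change was -0.85 without Ctrl 4, the library with the high mitochondrial share (edgeR). The deposited FPKM table, made by the authors from the same libraries, gave 14.9 to 26.0 FPKM in Ctrl and 6.66 to 11.7 FPKM in SA, again with no overlap.

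Markers of other liver cells were read beside Ccnd1. With edgeR, 0 of 9 tested stellate and fibroblast markers and 0 of 7 tested bile duct markers passed over all genes. At an unadjusted p under 0.05 these were 6 of 9 and 3 of 7, all lower in SA, as were 3.29% of all tested genes. Of 12 tested macrophage markers, 5 were lower and 1 higher at that level, where 2.91% of all tested genes were higher. Of 7 tested endothelial markers, 1 was lower and 0 higher at that level. None of the macrophage or endothelial markers passed over all genes. Markers of stellate cells and fibroblasts, 9 of 10 detected with Lrat at 0 counts in every library, summed to 407 to 975 CPM in Ctrl and 334 to 416 CPM in SA. Markers of bile duct cells, 8 of 8 detected and none at 0, summed to 50.4 to 152 CPM in Ctrl and 52.1 to 84.3 CPM in SA. Both sums overlapped between the groups. By sign alone, 9 of 9 tested stellate and fibroblast markers and 6 of 7 tested bile duct markers were lower in SA. All SA libraries lay below all Ctrl libraries for 2 of 9 and 0 of 7, as for 1.46% of all tested genes. Within Ctrl, the libraries with the highest Ccnd1, Ctrl 4 and Ctrl 1, also had the highest stellate and bile duct sums. Ctrl 2 had the lowest of both sums in Ctrl, 407 and 50.4 CPM, and its Ccnd1 of 25.1 CPM was above every SA library. The part of these cells in the Ccnd1 level was not tested, and in bulk tissue fewer cells of a type and less RNA per cell cannot be told apart.

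The other G1 and G1/S regulators overlapped between the groups. Ccne1, which encodes cyclin E1, a partner of CDK2, was at 2.39, 1.24, 2.84 and 3.02 CPM in Ctrl 1 to 4 and 2.01, 3.07, 2.70 and 3.25 CPM in SA 1 to 4. The groups overlapped, with a log2 fold change of 0.22 ± 0.32 SE by edgeR (adjusted p = 0.996). E2f1, which encodes an E2F factor that activates S phase genes, was at 6.62, 7.17, 8.45 and 4.74 CPM in Ctrl and 5.50, 7.44, 5.26 and 7.16 CPM in SA. Its log2 fold change of -0.09 ± 0.23 SE by edgeR (adjusted p = 0.996) lay within the spread of the libraries.

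Ccne2, the second cyclin E gene, was near the detection limit. It was at 0.273, 0.207, 0.0603 and 0.574 CPM in Ctrl and 0.335, 0.876, 0.622 and 0.506 CPM in SA, from 1 to 14 counts per library. It was too low to be tested with the other genes. In the fit without a low-count filter its log2 fold change was 1.08 ± 0.67 SE by edgeR (adjusted p = 0.895), with overlapping groups.

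The remaining D-type cyclins and their partners, which are not members, overlapped between the groups. Ccnd2 was at 8.39 to 13.0 CPM in Ctrl and 7.81 to 9.76 CPM in SA. Ccnd3 was at 26.8 to 44.8 CPM in Ctrl and 34.9 to 43.8 CPM in SA. Their log2 fold changes were -0.27 ± 0.19 for Ccnd2 and 0.16 ± 0.17 for Ccnd3 SE by edgeR (adjusted p = 0.976 and 0.996). Per length, at its mean over all libraries, Ccnd1 had the second highest level of the members, 4.59 CPM per kilobase of exon, after Pcna.

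**Figure D1:**
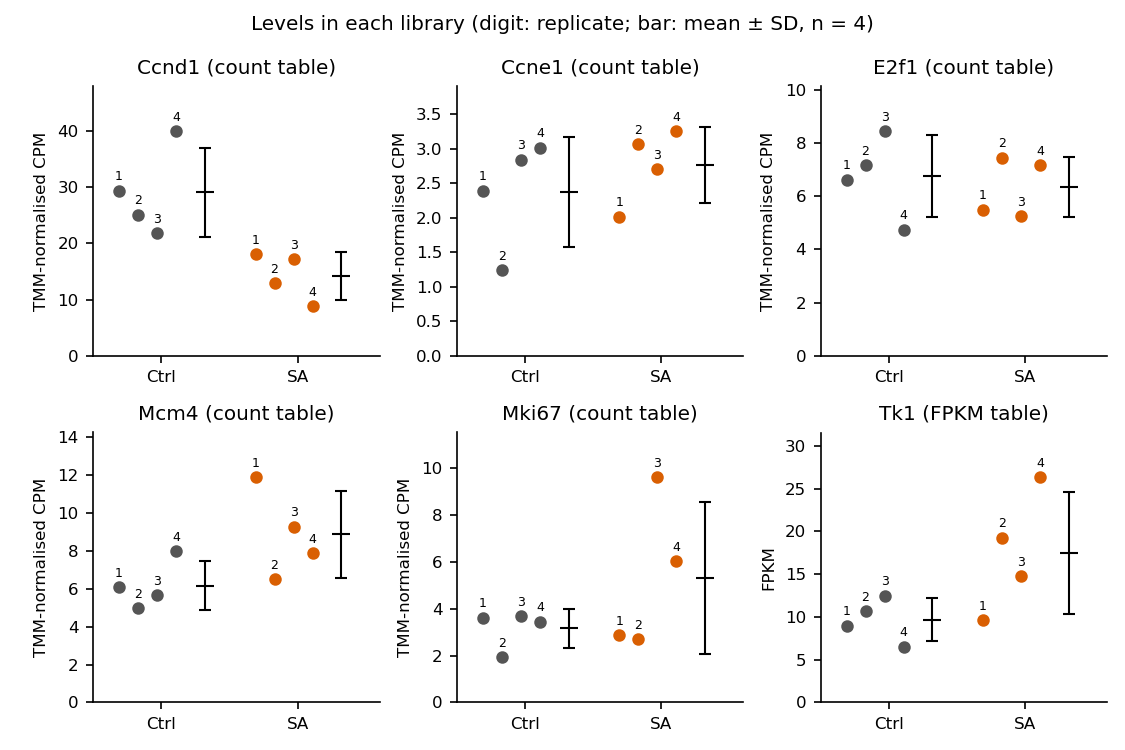
Each dot is 1 library, numbered by replicate, with the mean and SD of the group (n = 4) beside it; the y axes give TMM-normalised CPM from the count table for Ccnd1, Ccne1, E2f1, Mcm4 and Mki67, and FPKM for Tk1. Ccnd1 alone has no overlap between the groups, and Mki67 is highest in SA 3 and SA 4.

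The genes of DNA replication were expressed at overlapping levels in the groups. The MCM proteins 2 to 7 form the ring-shaped helicase that is loaded on replication origins, and Pcna encodes the sliding clamp of DNA polymerases. The 9 tested genes of replication and nucleotide synthesis had a median log2 fold change of 0.03, 5 positive and 4 negative, beside -0.01 over all tested genes. For each of these 9 genes the log2 fold change ± 2 SE lay within a 2-fold difference in either direction. Mcm4 did so only narrowly, with an upper end of 0.99. The factor 2 was fixed, so this range is not a confidence interval.

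Pcna, the member with the highest level per length at 12.8 CPM per kilobase, was at 36.6, 30.9, 25.4 and 33.5 CPM in Ctrl and 29.4, 31.0, 24.8 and 33.6 CPM in SA. Its log2 fold change was -0.09 ± 0.16 SE by edgeR (adjusted p = 0.996). Mcm7 was at 12.8, 11.0, 13.3 and 12.1 CPM in Ctrl and 14.8, 12.3, 12.3 and 15.3 CPM in SA. Both genes overlapped between the groups.

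Mcm4 was the MCM gene with the largest difference. It was at 6.07, 4.96, 5.67 and 7.97 CPM in Ctrl 1 to 4 and 11.9, 6.51, 9.27 and 7.88 CPM in SA 1 to 4. Ctrl 4 lay above SA 2 and SA 4, so the groups overlapped. The log2 fold change was 0.52 ± 0.23 SE by edgeR (unadjusted p = 0.0440, adjusted p = 0.797). The other 5 MCM genes had log2 fold changes of -0.08 (Mcm5) to 0.15 (Mcm7), although the MCM proteins work as 1 ring. Mcm2 was high in Ctrl 1 and SA 1, at 10.2 CPM in each, and 5.60 to 7.18 CPM in the other 6 libraries.

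The enzymes of DNA precursor supply gave a similar picture. Rrm2, the small subunit of ribonucleotide reductase, was at 5.66, 3.79, 8.33 and 6.60 CPM in Ctrl and 5.37, 8.32, 8.58 and 9.18 CPM in SA. Its log2 fold change was 0.37 ± 0.26 SE by edgeR (adjusted p = 0.978). Rrm1, the large subunit and not a member, was at 11.0 to 14.6 CPM in Ctrl and 12.4 to 19.9 CPM in SA, a log2 fold change of 0.41 ± 0.18 SE by edgeR (unadjusted p = 0.0455, adjusted p = 0.797). Tyms, thymidylate synthase, was at 7.44, 6.76, 5.31 and 6.82 CPM in Ctrl and 8.25, 6.32, 5.12 and 7.16 CPM in SA, a log2 fold change of 0.03 ± 0.21 (SE).

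Tk1 and Prc1 had 0 counts in all 8 libraries, while Tk1 has values well above 0 in the FPKM table. Tk1, thymidine kinase of the salvage pathway, is listed in the FPKM table at 8.96, 10.7, 12.5 and 6.53 FPKM in Ctrl 1 to 4 and 9.60, 19.3, 14.8 and 26.3 FPKM in SA 1 to 4. In that table SA 2, SA 3 and SA 4 lay above every Ctrl library and SA 1 within them. The difference on the log2(FPKM + 1) scale was 0.74 ± 0.31 SE by limma (unadjusted p = 0.0447, adjusted p = 0.999). Prc1 encodes a protein that bundles the microtubules of the spindle midzone.

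A count of 0 beside a clear FPKM value was not particular to Tk1. Of 8638 genes in both tables, 495 had 0 counts in every library, and 237 of these had at least 5 FPKM in every library. In the GENCODE M21 annotation, 79.9% of the 477 zero-count genes that could be matched had all exon bases inside the span of another gene, against 0.96% of the 8017 matched genes with counts. Tk1 lies wholly inside the joint spans of Afmid and Gm20708, and Prc1 inside those of Rccd1 and 6330403N20Rik. Ccne2 and Ube2c, with 62.9% and 62.8% of exon bases inside Ints8 and Tnnc2, and Ccnd1, with 37.6% inside LTO1, lie there in part. The part of these overlaps in the counts was not tested.

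**Figure D2:**
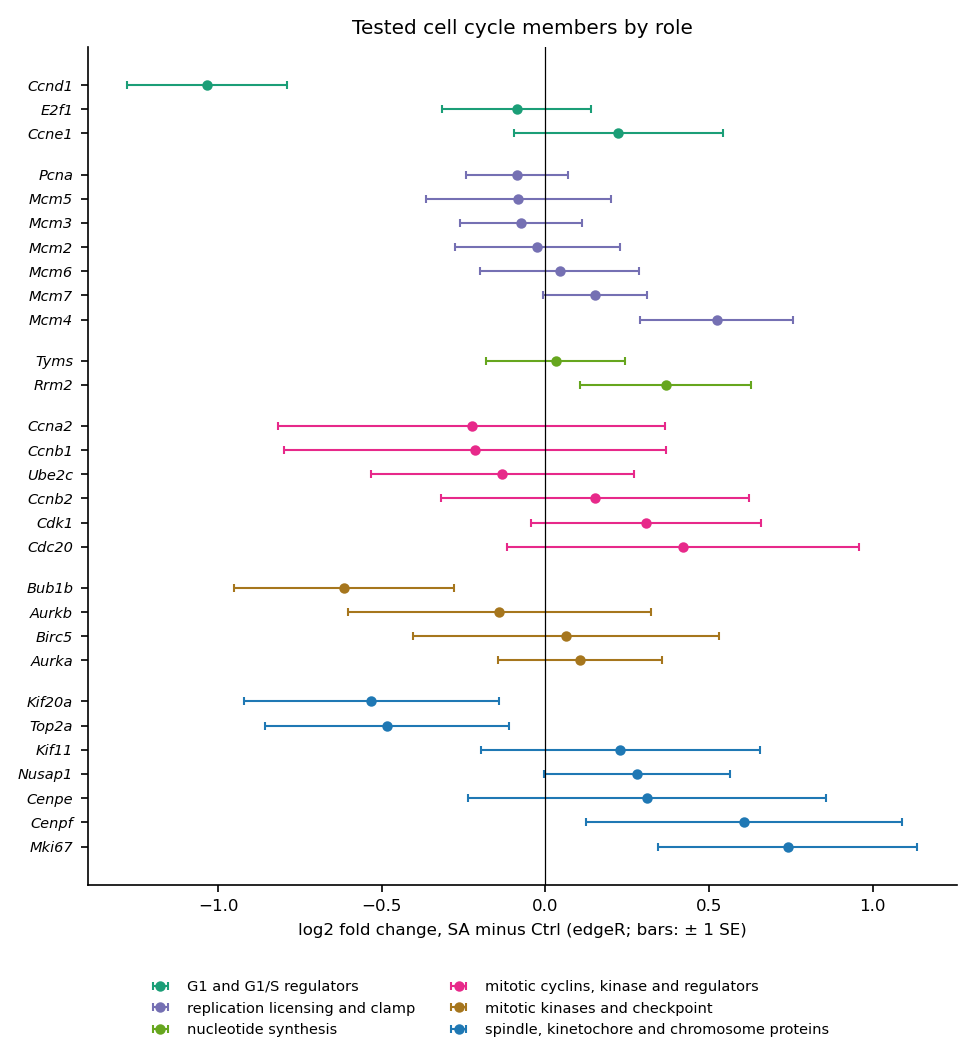
The x axis gives the log2 fold change, SA minus Ctrl, of each tested member with ± 1 SE, ordered within its role. Ccnd1 stands at -1.03, the replication genes lie between -0.09 and 0.52, and the mitotic genes scatter on both sides of 0 with wider errors.

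The mitotic genes were low in every library and showed no common direction. Of 22 genes, 21 had counts, with means over all libraries of 0.456 CPM (Bub1) to 4.24 CPM (Mki67). The 17 tested genes had a median log2 fold change of 0.11, 10 positive and 7 negative, and a range of -0.62 (Bub1b) to 0.74 (Mki67). None had an unadjusted p under 0.05 (edgeR). Their SE was 0.25 to 0.59, and 3 of the 17 (Aurka, Ube2c and Nusap1) had a log2 fold change ± 2 SE within a 2-fold difference. Ube2c did so narrowly, with a lower end of -0.94. For the other 14 this range reached beyond a 2-fold difference in at least 1 direction.

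Many mitotic genes share promoter elements. DREAM and the activators that replace it bind a short element called CHR, and the factor NF-Y binds CCAAT boxes near it, while E2F sites are typical of replication genes. RefSeq promoters (GRCm38.p6, 250 bases before to 50 after each start) were matched for 29 of 36 members. Not matched were Aurkb, Ccna2, Ccnd1, Ccne2, Foxm1, Kif20a and Mcm4. The letters TTTGAA (CHR) were found on either strand in 13 of 18 mitotic promoters and in 17.9% of all promoters of the table. All 13 also held CCAAT, and both together were found in 6.95% of all promoters. CCAAT alone was in 16 of 18 mitotic promoters, 7 of 9 promoters of replication and nucleotide genes and 37.4% of all promoters, and a CHR and a CCAAT match may share a letter.

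An E2F site, searched on both strands as TTTGGCGC, TTTGCCGC, TTTCGCGC or TTTCCCGC, was found in 4 of 9 promoters of replication and nucleotide genes (Mcm3, Mcm5, Mcm6 and Mcm7), 1 of 18 mitotic promoters (Cdk1) and 2.26% of all promoters. The stretches just before the start are shown for 4 mitotic genes with CHR and CCAAT letters, and for Mcm6 as a replication gene with E2F letters and no CHR. The Mcm6 stretch also holds 2 CCAAT boxes, left in lower case. Capitals mark CHR letters (TTTGAA or its reverse complement TTCAAA) and CCAAT boxes (CCAAT or its reverse complement ATTGG) in the mitotic genes. In Mcm6 capitals mark E2F letters, and 2 sites on opposite strands overlap at the left end. A match is a description of these letters and not a measured binding site. In GRCm38.p6 the stretches are chr10:69352913-69353022 (minus strand) for Cdk1, chr4:118437344-118437453 (minus strand) for Cdc20, chr2:164769819-164769928 (plus strand) for Ube2c, chr11:99024190-99024299 (minus strand) for Top2a and chr1:128359706-128359815 (minus strand) for Mcm6, each 5′ to 3′ along the gene.
Cdk1: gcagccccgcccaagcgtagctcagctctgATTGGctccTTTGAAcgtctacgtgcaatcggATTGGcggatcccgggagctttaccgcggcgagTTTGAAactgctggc
Cdc20: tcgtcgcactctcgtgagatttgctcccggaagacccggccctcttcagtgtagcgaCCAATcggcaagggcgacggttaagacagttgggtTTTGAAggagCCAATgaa
Ube2c: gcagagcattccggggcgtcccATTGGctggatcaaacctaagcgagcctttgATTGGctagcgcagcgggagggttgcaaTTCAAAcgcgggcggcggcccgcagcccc
Top2a: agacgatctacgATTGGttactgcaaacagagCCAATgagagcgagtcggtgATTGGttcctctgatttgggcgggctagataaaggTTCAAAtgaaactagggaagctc
Mcm6: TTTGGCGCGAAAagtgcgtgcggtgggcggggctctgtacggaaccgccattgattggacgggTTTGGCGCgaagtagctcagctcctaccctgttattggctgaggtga

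The mitotic cyclins and their kinase overlapped between the groups. Cdk1, the kinase of mitotic entry, was at 2.80, 1.52, 2.05 and 2.08 CPM in Ctrl 1 to 4 and 1.27, 2.31, 3.25 and 3.54 CPM in SA 1 to 4. SA 3 and SA 4 lay above every Ctrl library and SA 1 below them, with a log2 fold change of 0.31 ± 0.35 SE by edgeR (adjusted p = 0.996). Ccnb2, cyclin B2, was at 1.77, 0.896, 0.543 and 1.08 CPM in Ctrl and 0.671, 0.751, 2.14 and 1.19 CPM in SA. Ube2c, the ubiquitin-conjugating enzyme of the anaphase-promoting complex, was at 1.91, 0.758, 1.51 and 1.58 CPM in Ctrl and 0.671, 1.69, 1.04 and 1.77 CPM in SA. The groups overlapped for all 3 genes.

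Other regulators were close to the limit of detection. Ccna2 (cyclin A2), Ccnb1 (cyclin B1) and Cdc20, an activator of the anaphase-promoting complex, had 3 to 52 counts per library. Their log2 fold changes were -0.23 ± 0.59, -0.21 ± 0.58 and 0.42 ± 0.54 (SE; edgeR). Foxm1, a transcription factor of mitotic genes, was too low to be tested, at 3 to 19 counts.

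Among the mitotic kinases and checkpoint genes, Aurka was the most abundant per length, at 1.44 CPM per kilobase. Aurka, a kinase of spindle poles, was at 3.75, 3.24, 3.86 and 3.23 CPM in Ctrl and 2.48, 4.50, 4.15 and 4.01 CPM in SA. Of the SA libraries, 3 lay above and 1 below all Ctrl libraries, and the log2 fold change was 0.11 ± 0.25 SE by edgeR (adjusted p = 0.996). Bub1b, a component of the spindle checkpoint, was at 1.64, 1.31, 2.78 and 1.87 CPM in Ctrl and 1.21, 1.19, 1.59 and 1.01 CPM in SA. SA 3 alone overlapped Ctrl, and the log2 fold change of -0.62 ± 0.34 SE by edgeR (adjusted p = 0.912) did not pass.

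Birc5, which encodes survivin of the chromosomal passenger complex, was at 1.57, 0.758, 0.845 and 2.01 CPM in Ctrl and 0.402, 1.81, 1.45 and 1.66 CPM in SA. Aurkb, the kinase of that complex, had 4 to 29 counts per library and a log2 fold change of -0.14 ± 0.46 (SE; edgeR). Bub1, a checkpoint kinase, and Plk1, a kinase of mitotic entry, were too low to be tested, at 1 to 19 counts per library.

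Mki67, the gene of the proliferation antigen Ki-67, had the largest positive value of the tested members, through SA 3 and SA 4. It was at 3.62, 1.93, 3.68 and 3.45 CPM in Ctrl 1 to 4 and 2.88, 2.69, 9.61 and 6.04 CPM in SA 1 to 4. SA 3 and SA 4 were above every Ctrl library and SA 1 and SA 2 within the Ctrl range. The log2 fold change was 0.74 ± 0.40 SE by edgeR (adjusted p = 0.904), and 0.31 without SA 3.

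Top2a, a topoisomerase that untangles chromosomes and is often read beside Mki67, had the opposite sign. It was at 3.34, 2.21, 3.50 and 6.53 CPM in Ctrl and 1.81, 2.63, 4.50 and 2.24 CPM in SA, a log2 fold change of -0.49 ± 0.37 SE by edgeR (adjusted p = 0.989). Ctrl 4 was the highest library, and without it the value was -0.13. Kif11, a spindle motor, was at 2.25, 1.10, 1.09 and 3.59 CPM in Ctrl and 2.82, 2.63, 2.77 and 1.27 CPM in SA. The remaining spindle and kinetochore genes with a test were Cenpf (0.61), Cenpe (0.31), Nusap1 (0.28) and Kif20a (-0.53), given as log2 fold changes. Hmmr was too low to be tested, at 5 to 17 counts.

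Mitotic genes had common low libraries within each group. Ctrl 2 was the lowest Ctrl library for 13 of 21 mitotic genes with counts, and SA 1 the lowest SA library for 13 of 21. The level summed over mitotic genes was 36.0, 19.9, 28.7 and 35.7 CPM in Ctrl 1 to 4 and 21.7, 29.7, 42.3 and 34.8 CPM in SA 1 to 4. The lowest and highest values of the sum within SA, 21.7 and 42.3 CPM, lay farther apart than the group means of 30.1 and 32.1 CPM. The replication and nucleotide genes summed to 77.5 to 97.5 CPM in Ctrl and 80.9 to 97.6 CPM in SA. Relative to their group means of 86.1 and 89.6 CPM they spread less than the mitotic genes, but not in CPM within Ctrl (SD 8.76 against 7.57 CPM).

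Markers of blood cells were read beside these sums. Erythroid markers, 7 of 8 detected with Alas2 at 0 counts in every library, summed to 112, 101, 173 and 62.5 CPM in Ctrl 1 to 4 and 63.4, 84.6, 219.6 and 250.5 CPM in SA 1 to 4. SA 3 and SA 4, the libraries with the most Mki67, were also the highest for erythroid markers. Ctrl 4 had the lowest erythroid sum but a mitotic sum of 35.7 CPM, above the 34.8 CPM of SA 4. Ctrl 3, the highest Ctrl library for erythroid markers, had a mitotic sum of 28.7 CPM. T and NK cell markers, 11 of 11 in the table detected, summed to 3.80 to 8.13 CPM in Ctrl and 9.26 to 14.9 CPM in SA. This sum did not overlap between the groups. All 6 tested markers were higher in SA, 3 of them at an unadjusted p under 0.05, as were 2.91% of all tested genes. With edgeR 0 of 6 passed over all genes (smallest adjusted p = 0.0819). The defining T cell genes Cd3d, Cd3e and Trbc2 were at 0 in at least 1 library. B and plasma cell markers, 6 of 8 detected, summed to 20.9 to 33.8 CPM in Ctrl and 18.4 to 45.7 CPM in SA. Neutrophil and myeloid precursor markers, 7 of 9 detected, summed to 8.89 to 18.7 CPM in Ctrl and 7.26 to 11.3 CPM in SA. Both of these sums overlapped between the groups. The part of these blood cells in the mitotic sums was not tested.

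**Figure D3:**
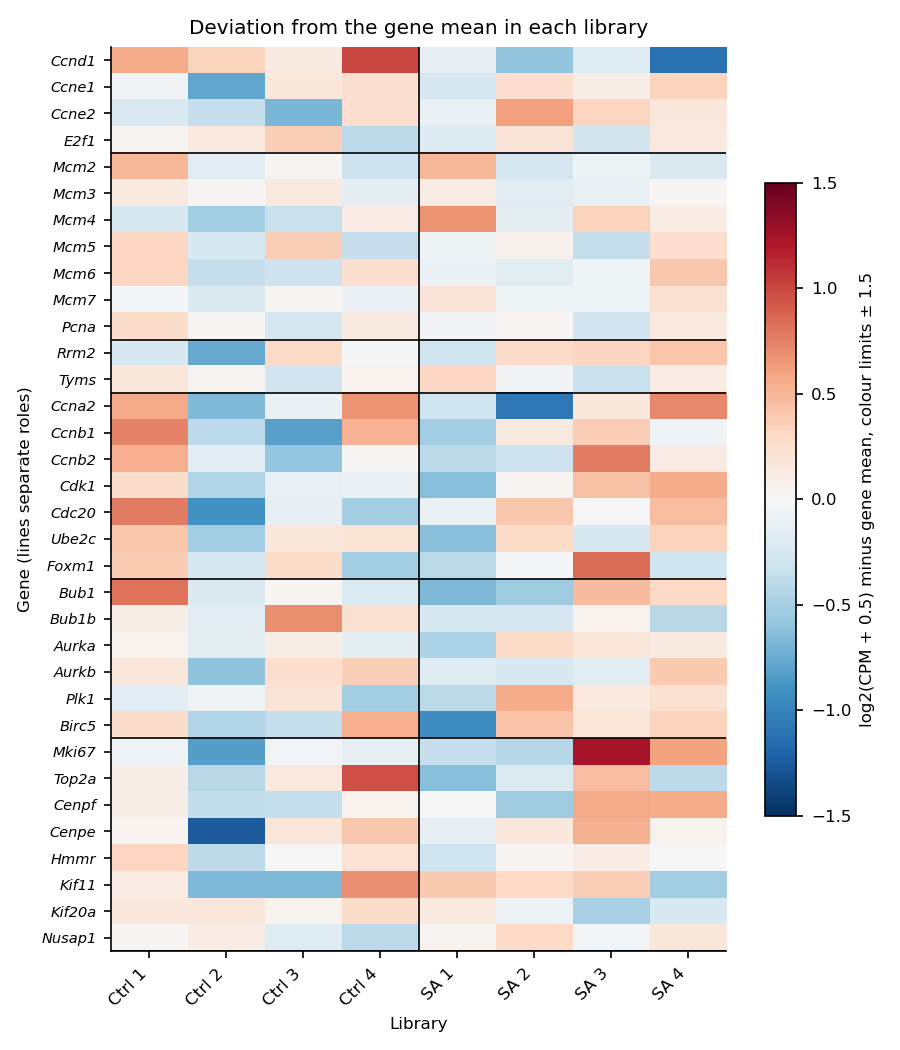
Each row is a member with counts, each column a library, and the colour gives log2(CPM + 0.5) minus the mean of the gene, with lines between the roles. Ccnd1 is above its mean in all Ctrl libraries and below it in all SA libraries, and many mitotic genes are below their mean in Ctrl 2 and SA 1.

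The wider cell cycle network was read from 7 further lists of 127 genes, of which 103 were tested. With edgeR 0 of 103 passed over all genes, and 5 had an unadjusted p under 0.05, 4 higher and 1 lower, against a background of 6.21%. All SA libraries were above all Ctrl libraries for 2 of 103, as for 1.66% of all tested genes. These were 1 of the other G1 cyclins and CDKs and 1 of the further origin and replication genes. All SA libraries were below all Ctrl libraries for 0 of 103, against 1.46%. No gene of these lists was called by DESeq2. Median log2 fold changes of the lists were -0.06 to 0.11, beside -0.01 over all tested genes.

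The CDK inhibitors, which hold cells out of the cycle, were 2 positive and 3 negative of 5 tested, with a median of -0.06. Cdkn1a, which encodes p21, was at 15.1, 5.03, 11.6 and 5.74 CPM in Ctrl and 11.1, 7.38, 6.15 and 16.0 CPM in SA. Both groups held high and low libraries, and the log2 fold change was 0.12 ± 0.37 SE by edgeR (adjusted p = 0.996). Cdkn1b, which encodes p27, was at 25.2 to 31.6 CPM in Ctrl and 22.6 to 26.4 CPM in SA, a log2 fold change of -0.18 ± 0.14 (SE).

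Cdk4 and Cdk6, the kinase partners of cyclin D1, overlapped between the groups. Cdk4 was at 26.9 to 43.1 CPM in Ctrl and 32.4 to 37.3 CPM in SA, and Cdk6 at 29.8 to 68.1 CPM in Ctrl and 32.4 to 50.6 CPM in SA. Over 12 other G1 cyclins and CDKs the median was -0.05. The RB, E2F and DREAM factors had a median of 0.06 over 15 tested genes, 9 positive and 6 negative. Further origin and replication genes had 0.11 over 19, further mitotic genes 0.06 over 24, and p53 targets and growth arrest genes 0.06 over 12.

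The largest positive values were those of Fos, Gadd45g and Jun, of which Fos and Jun are in the list of hepatocyte growth signals. Fos, an immediate early transcription factor, was at 4.50, 2.21, 2.59 and 1.65 CPM in Ctrl and 1.07, 66.4, 12.7 and 18.1 CPM in SA, a log2 fold change of 3.16 ± 0.82 SE by edgeR (adjusted p = 0.367). Jun, its partner, was at 35.5 to 46.4 CPM in Ctrl and 16.6, 110, 96.5 and 136 CPM in SA, a log2 fold change of 1.15 ± 0.43 SE by edgeR (adjusted p = 0.671). Gadd45g, a growth arrest gene, was at 5.31 to 19.0 CPM in Ctrl and 12.0, 45.7, 4.77 and 70.3 CPM in SA.

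Fos and Jun were higher in SA 2, SA 3 and SA 4 than in any Ctrl library and lower in SA 1 than in any Ctrl library. Without SA 1 both passed over all genes, Fos at 3.56 and Jun at 1.49 (edgeR, adjusted p = 0.0259 and 0.00621). That fit called 19 genes in all, against 2 with all libraries, and it left out the only SA library with low Fos and Jun. Fos was at 1.96 without SA 2 and Jun at 0.87 without SA 4, and neither passed (edgeR, adjusted p = 0.850 and 0.953). limma-voom gave Fos 2.21 (adjusted p = 0.925). SA 1 was also the SA library with the lowest mitotic sum and the highest Ccnd1. Ccn2, a matrix protein induced through YAP, was at 7.86 to 20.2 CPM in Ctrl and 6.37 to 11.2 CPM in SA, a log2 fold change of -0.75 ± 0.28 SE by edgeR (adjusted p = 0.662).

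**Figure D4:**
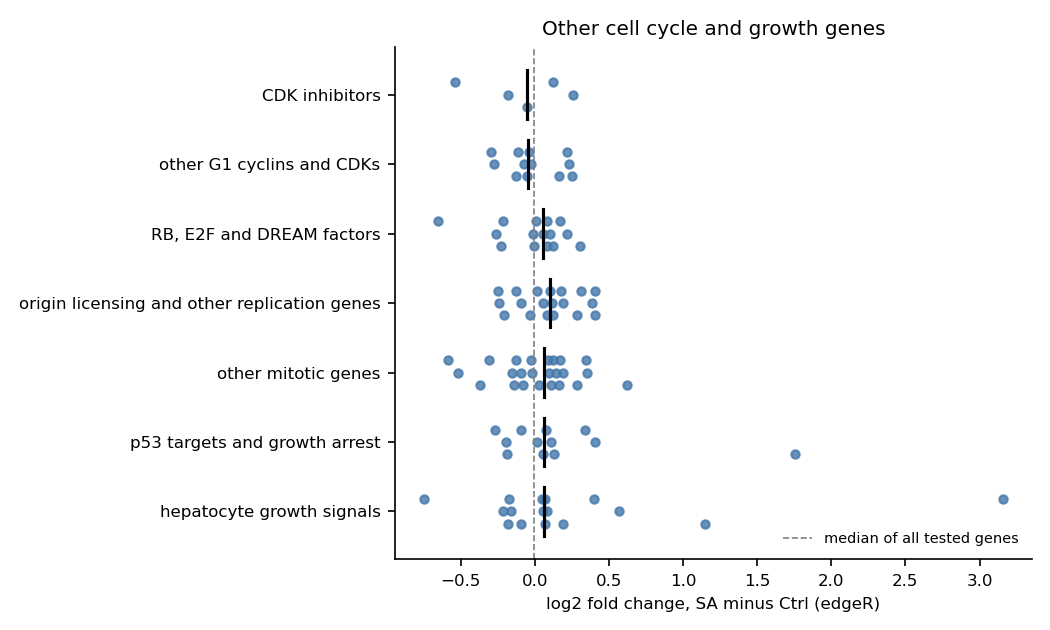
Each dot is a tested gene of 1 of 7 lists, placed by its log2 fold change, SA minus Ctrl, on the x axis, with a black bar at the median of the list and a dashed line at the median of all tested genes. The medians lie at -0.06 to 0.11, and Fos, Gadd45g and Jun lie farthest to the right.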

How the data were processed

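RNA of frozen liver was sequenced from 8 samples, grouped by their titles. Per the labels, RNAiso Plus served for extraction and a NEBNext Ultra kit for the libraries, with no statement on strand. The submitters' processing notes name FastQC 0.19.7, HISAT2 and StringTie 2.2.1 and the builds GRCm39 and mm10, and the counting program was not given in the sources used here. The deposited count table holds whole-number counts per gene. The deposited FPKM table, computed by the authors, holds 9265 rows. Its symbols were matched without regard to case.

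Counts were tested with the quasi-likelihood test of edgeR 4.0.16 (R 4.3.3), TMM factors and filterByExpr, 4 libraries against 4 without a block, with Benjamini-Hochberg adjustment over 12358 genes. Levels are TMM-normalised CPM. SE is the absolute fold change over the root of F. Alternatives were DESeq2 1.42.0, limma-voom (limma 3.58.1), RLE and upper quartile factors, 2 other filters, limma after a log2 transform of FPKM plus 1 or plus 0.1, for rows of at least 0.5 FPKM in 4 libraries, the omission of each library and a replicate block. DESeq2 without each library, and medians without members lying mostly in another gene, were added after seeing the data. The fit was tested on simulated data.

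Members and lists were chosen with earlier results of these data known. Values per library are printed for the G1 genes, the 3 most abundant members of each other role and members with an unadjusted p under 0.05, non-overlapping groups or a DESeq2 call. Pathway genes are named at an unadjusted p under 0.05, together with Cdkn1a, Cdkn1b, Ccnd2 and Ccnd3. Rrm1 also met this rule. Cdk4, Cdk6, Mcm2 and the low members given by range were added after their values were seen. Exon lengths and gene spans come from GENCODE M21 (GRCm38), used for lengths and neighbours only. The labels do not say that the 8 samples are 8 animals, so p-values refer to spread among these samples, which may be technical. Within each group no library was a copy of another, with a chi-square per degree of freedom of at least 29.8. Libraries of different groups were not compared in this way. The tested mitotic genes had 1 to 167 counts per library. For the erythroid markers, 1 gene of the list is not reported here and is not in the sums.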

Additional observations from a re-analysis of the deposited data

Results flagged for a closer look

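Among the genes whose values per library are printed, 2 of 58 groups of 4 held a library set apart from the other 3, where chance gives about 1 in 20. Mki67 in Ctrl 2 was at 1.93 CPM, below 3.45 to 3.68 CPM in the other Ctrl libraries. Kif11 in SA 4 was at 1.27 CPM, below 2.63 to 2.82 CPM in the other SA libraries. Tk1, at 0 counts everywhere, reached 26.3 FPKM in SA 4 in the FPKM table, which the count comparison does not use, and its lowest value there was 6.53 FPKM.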

How the results depend on the processing

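Ccnd1 had a negative log2 fold change under every alternative run, and passed the threshold with DESeq2 alone (-1.04). Without 1 library it was -1.17 to -0.85 with edgeR and -1.18 to -0.85 with DESeq2 (-1.09, -1.16 and -1.14 without Ctrl 2, Ctrl 3 and SA 3). The number of members past the threshold was 1 with DESeq2 and 0 under the others. Over all genes 2 passed in the edgeR test, 60 with DESeq2, 8 without a low-count filter and 6 with the replicate block, and 0 to 19 without 1 library, the 19 without SA 1. The cause was not tested. The replicate numbers did not pair the libraries: deviations of same-numbered libraries correlated at -0.22 to 0.22, and 1 of 8 libraries correlated best with its own number. With the block Ccnd1 was at -1.04. The median of G1 regulators, over Ccnd1 and E2f1 only, was -0.53 on the log2(FPKM + 1) scale and -0.63 on the log2(FPKM + 0.1) scale. Medians without 1 library were -0.23 to 0.04 for G1 regulators, -0.06 to 0.17 for replication and nucleotide genes and -0.06 to 0.26 for mitotic genes. Signs reversed for Tyms with upper quartile factors (-0.0054), for Cdkn1a in FPKM (-0.54 and -0.74) and, without 1 library, for E2f1 (-0.23 to 0.042), Tyms (-0.078 to 0.14), Ccnb2 (-0.26 to 0.50), Ube2c (-0.34 to 0.074), Birc5 (-0.11 to 0.35), Cdkn1a (-0.20 to 0.45), Cdk4 (-0.20 to 0.00019) and Cdk6 (-0.27 to 0.14). Too few mitotic genes are in the FPKM table for a median there. The tested mitotic genes had 1 to 167 counts per library, and the shares of counting error and of spread between libraries in their SE were not tested.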
